A study of Mus musculus with 4 samples.

Results

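The genes described here act in mitosis and chromosome segregation. They comprise the cyclins and kinases that start mitosis, kinesins, kinetochore and checkpoint proteins, condensin, and the factors that release sister chromatids. The list holds 45 gene symbols chosen for that role, and 43 of them had a probe set assigned to that symbol alone. Ccnb1 and Cdca8 had none and carry no value here. A probe set is a group of short array probes that together report 1 transcript. Each gene is represented by its probe set of highest mean value over the 4 arrays, out of 12393 genes represented in the same way.

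Female C57BL/6 mice aged 8 to 12 weeks received an intraperitoneal injection of 10 µg/kg TCDD or of its solvent DMSO, both in corn oil, and their spleens were taken after 24 h. TCDD, a dioxin, is the classical ligand of the aryl hydrocarbon receptor, a transcription factor. Each group had 3 mice, and the spleens were pooled before dendritic cells (DC) were isolated by density separation and then magnetic sorting, to a stated purity above 90%. There were 2 Affymetrix arrays of amplified RNA per group, numbered as biological replicates 1 and 2; the labels do not tell whether the arrays came from separate sets of mice, so p-values measure only the spread between these arrays, which may be technical. All values are deposited RMA values (array signals after background correction and normalization) on the log2 scale, where a difference of 1 is a 2-fold difference.

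DC of the spleen arise from bone marrow precursors, and some of the precursors that reach the spleen still divide before they mature. Mitosis begins when cyclin-bound CDK1 becomes active. Microtubules then capture chromosomes at kinetochores, and the spindle checkpoint holds back the anaphase promoting complex until every chromosome is attached. Transcripts of these genes build up shortly before division and are low in resting cells, so their level in a cell preparation is used as a sign of how many of its cells are cycling. In a bulk sample fewer dividing cells and less of each transcript per dividing cell cannot be told apart.

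Most of the mitosis genes stood lower after TCDD. Of the 43 measured, 36 had a mean TCDD value below the mean DMSO value, 6 lay above it and Ndc80 was equal. The median difference, TCDD minus DMSO, was -0.50 on the log2 scale, against 0.00 over all 12393 genes. In 19 genes, or 44.2%, both TCDD arrays lay below both DMSO arrays; this held for 19.4% of all genes. Only Cdca3 and Kif23 lay above both DMSO arrays in both TCDD arrays, 4.65% of the mitosis genes against 20.0% of all genes. The cumulative plot shows the distribution of these differences shifted to lower values.

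**Figure D1:**
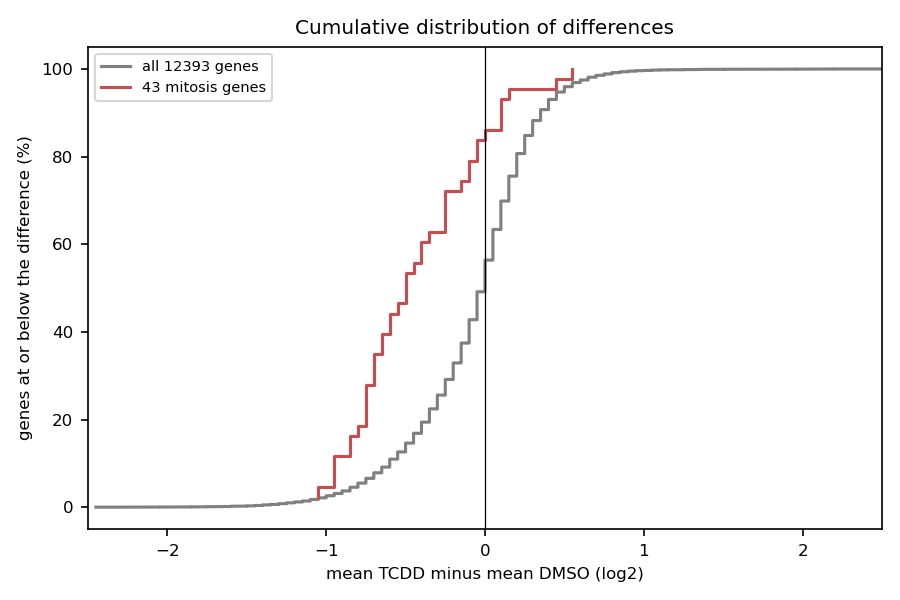
Cumulative share of genes (y axis, percent) at or below a given mean difference, TCDD minus DMSO (x axis, log2), for the 43 mitosis genes and for all 12393 genes. The curve of the mitosis genes lies to the left over most of its range, with a median of -0.50 against 0.00, and spans -1.05 to 0.55.

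No single gene passed the test. Limma, fitted over all 22626 probe sets, called 0 of them at an adjusted p under 0.05, a background of 0%, and the lowest adjusted p was 0.349. The same limma fit held 2958 probe sets whose unadjusted p was under 0.05. By gene, 8 mitosis genes were lower at that level, 18.6% against 7.35% of all genes, and 0 were higher against 7.10% of all genes. These 8 were Cdk1, Ccnb2, Birc5, Bub1b, Mad2l1, Kif20a, Tpx2 and Ncapd2. Mad2l1 and Smc2 stood at least 2-fold lower with the groups apart, 4.65% against 2.42% of all genes. No exact permutation test was run, since p = 0.333 is the smallest it allows with 2 arrays per group.

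The arrays within a group differed as well. DMSO replicate 2 lay above DMSO replicate 1 in 31 of the 43 genes and below it in 9, with a median difference of 0.30, while 38.7% of all genes were higher in DMSO replicate 2 and the median over all genes was 0.00. TCDD replicate 1 differed from the DMSO mean by a median of -0.20 and TCDD replicate 2 by -0.60. The smallest gap was between TCDD replicate 1 and DMSO replicate 1, with a median of -0.10, 22 genes lower and 14 higher. Over all genes the median for this pair was 0.10, with 34.8% lower and 52.1% higher. The largest gap was between TCDD replicate 2 and DMSO replicate 2, with a median of -0.70, 36 genes lower and 6 higher. Over all genes it was -0.10, with 53.2% lower and 36.5% higher. Both comparisons with DMSO replicate 1 were therefore the smaller ones for each TCDD array. Without TCDD replicate 2 the median difference of the mitosis genes was -0.20, and without TCDD replicate 1 it was -0.60; the direction held with each array left out. The excess of mitosis genes at an unadjusted p under 0.05 in the limma fit was lost when either TCDD array was left out. Without TCDD replicate 2 only 3 were lower at that level, 6.98% against 7.02% of all genes, and 1 was higher. Without TCDD replicate 1 it was 4, 9.30% against 14.4% of all genes, and 2 were higher. Without DMSO replicate 2 it was 5, 11.6% against 4.73% of all genes. Genes lower without overlap numbered 31 without DMSO replicate 1, 72.1% against 29.0% of all genes, and 32 without TCDD replicate 1, 74.4% against 46.3%. Genes at least 2-fold lower without overlap, 2 with all arrays, were 0 without DMSO replicate 2, where 2.60% of all genes were. They were 5 without TCDD replicate 2 (11.6% against 4.07% of all genes), 11 without DMSO replicate 1 (25.6% against 4.62%) and 13 without TCDD replicate 1 (30.2% against 4.20%).

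**Figure D2:**
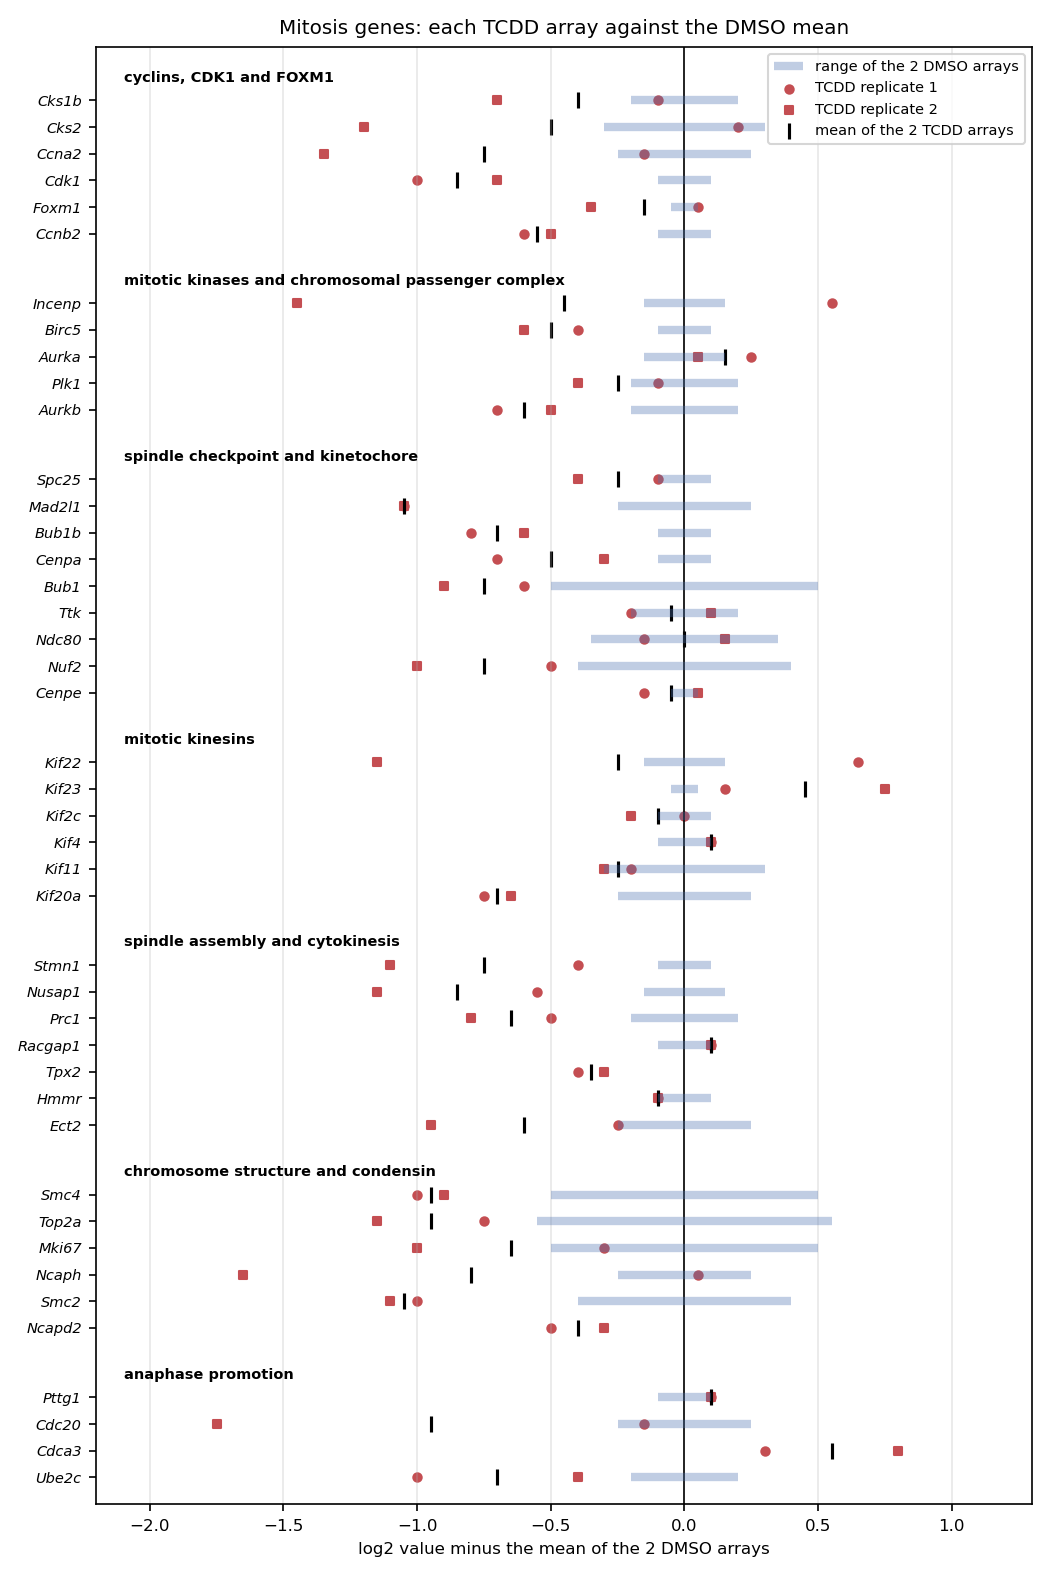
Each TCDD array minus the mean of both DMSO arrays (x axis, log2) for the 43 mitosis genes (y axis), grouped by role. Red circles and squares are TCDD replicates 1 and 2, black ticks their mean, and blue bars the range of the 2 DMSO arrays. In 19 genes both red points lie to the left of the blue bar. In Incenp and Kif22 the red points lie beyond opposite ends of the bar. In several other genes, Cks2 and Ncaph among them, they lie on opposite sides of 0.

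The differences over all genes varied with brightness, and the part of brightness in those of the mitosis genes was not tested. Genes with a mean level from 8 to 9 had a median difference of -0.35, and genes from 5 to 6 one of 0.10. The 11 mitosis genes with a mean level from 5 to 6 had a median of -0.60, the 9 from 6 to 7 had -0.40 against 0.00 over all genes, and the 13 from 7 to 8 had -0.65 against -0.20. The values were -0.55 against -0.35 for the 4 genes from 8 to 9 and -0.50 against -0.35 for the 5 genes above 9. After cyclic loess normalization the mitosis genes had a median of -0.44, with 20 lower without overlap (46.5% against 20.6% of all genes) and 4 higher (9.30% against 25.4%).

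The promoters of the mitosis genes are shown because the members share sequence features that did not enter their choice. Many such genes carry CCAAT boxes, bound by the factor NF-Y, and a cell cycle genes homology region (CHR), which is read by the DREAM complex in resting cells and by the MuvB, B-Myb and FOXM1 factors before mitosis. RefSeq windows on GRCm38.p6, from 250 bases before to 50 bases after an annotated start, were available for 37 of the 45 listed genes, in 39 windows. Both strands were searched for CCAAT and for the CHR sequence TTTGAA, and matches that overlap each other were counted singly. CCAAT was found in 31 of the 39 windows, 79.5% against 37.4% of all 32851 windows, and TTTGAA in 29, 74.4% against 17.9%. Both were found in 27, 69.2% against 6.95%. Among the members, both were found in 14 of 20 windows of genes whose groups overlapped and in 10 of 15 windows of genes lower without overlap. A match is a string of letters and not a measured binding site.

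The 250 bases before the start are printed 5′ to 3′ on the strand of the gene for Cdk1, Top2a and Ccnb2, which were lower without overlap and hold both motifs, and for Mad2l1, which had the largest difference of the list together with Smc2. Capitals mark CCAAT or TTTGAA on either strand. Cdk1 lies on the minus strand at chr10:69352913-69353162, Top2a on the minus strand at chr11:99024190-99024439, Ccnb2 on the minus strand at chr9:70421555-70421804 and Mad2l1 on the plus strand at chr6:66534971-66535220.
Cdk1: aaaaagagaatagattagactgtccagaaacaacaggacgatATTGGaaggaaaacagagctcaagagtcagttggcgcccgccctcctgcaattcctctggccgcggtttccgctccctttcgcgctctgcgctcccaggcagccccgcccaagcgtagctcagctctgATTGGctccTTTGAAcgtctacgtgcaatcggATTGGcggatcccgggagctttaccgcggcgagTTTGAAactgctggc
Top2a: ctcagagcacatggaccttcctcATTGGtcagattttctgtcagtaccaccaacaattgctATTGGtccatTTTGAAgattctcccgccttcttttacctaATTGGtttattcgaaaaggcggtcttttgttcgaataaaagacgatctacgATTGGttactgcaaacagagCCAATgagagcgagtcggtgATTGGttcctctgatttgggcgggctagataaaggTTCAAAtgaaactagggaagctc
Ccnb2: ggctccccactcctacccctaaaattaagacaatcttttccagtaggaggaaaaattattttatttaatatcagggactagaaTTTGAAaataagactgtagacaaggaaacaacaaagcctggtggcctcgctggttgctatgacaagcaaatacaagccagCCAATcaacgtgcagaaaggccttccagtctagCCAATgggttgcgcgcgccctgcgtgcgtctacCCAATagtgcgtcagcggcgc
Mad2l1: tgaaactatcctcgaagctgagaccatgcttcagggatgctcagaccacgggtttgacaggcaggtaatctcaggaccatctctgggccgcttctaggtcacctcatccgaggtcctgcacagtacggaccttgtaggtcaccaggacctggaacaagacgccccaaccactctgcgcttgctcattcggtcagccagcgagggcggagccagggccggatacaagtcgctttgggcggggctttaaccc
The Cdk1 stretch holds 3 matches to CCAAT and 2 to TTTGAA, that of Top2a 6 and 2, and that of Ccnb2 3 and 1. The Mad2l1 stretch holds 0 of either, so these letters are not common to all genes that stood lower.

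Cyclins, CDK1 and their partners came first in the order of events. Cdk1, the kinase that drives entry into mitosis, stood at 7.9 and 7.7 in the DMSO arrays and at 6.8 and 7.1 in the TCDD arrays. The groups did not overlap, and the difference was -0.85 (SE 0.159, n = 2 per group), 1.80-fold lower, with a limma adjusted p of 0.349. Ccnb2, a B-type cyclin that activates CDK1, gave 7.2 and 7.4 in controls and 6.7 and 6.8 with TCDD. Its arrays within each group were close together, and the difference was -0.55 (SE 0.11; limma adjusted p = 0.349). Ccna2, the cyclin of S phase and early mitosis, stood at 7.6 and 8.1 in DMSO against 7.7 and 6.5 in TCDD. On this brightest probe set the low value lay in TCDD replicate 2 alone, so the groups overlapped and the difference of -0.75 had an SE of 0.532. The other probe set of Ccna2 read 6.7 and 7.2 under DMSO and 6.3 and 6.7 under TCDD. There the lower value was that of TCDD replicate 1, and the difference was -0.45, also with overlap.

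The small CDK-binding proteins were among the brightest genes of the list. Cks1b read 9.8 and 10.2 under DMSO and 9.9 and 9.3 under TCDD, a difference of -0.40. Cks2 had values of 9.1 and 9.7 in the DMSO arrays, against 9.6 and 8.2 after TCDD, a difference of -0.50 with an SE of 0.622. In both genes the groups overlapped. Their second probe sets differed by -0.45 and -0.60, and that of Cks2 had both TCDD arrays at 8.0, below 8.2 and 9.0 in DMSO. Foxm1, a transcription factor of mitotic genes, differed by -0.15 on its brightest probe set, with 7.3 and 7.2 in DMSO and 7.3 and 6.9 in TCDD, and its 3 other probe sets differed by -0.25 to 0.05. In this group 6 of 6 measured genes were below the DMSO mean, with a group median of -0.53. Without overlap 2 were lower, 33.3% against 19.4% of all genes.

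**Figure D3:**
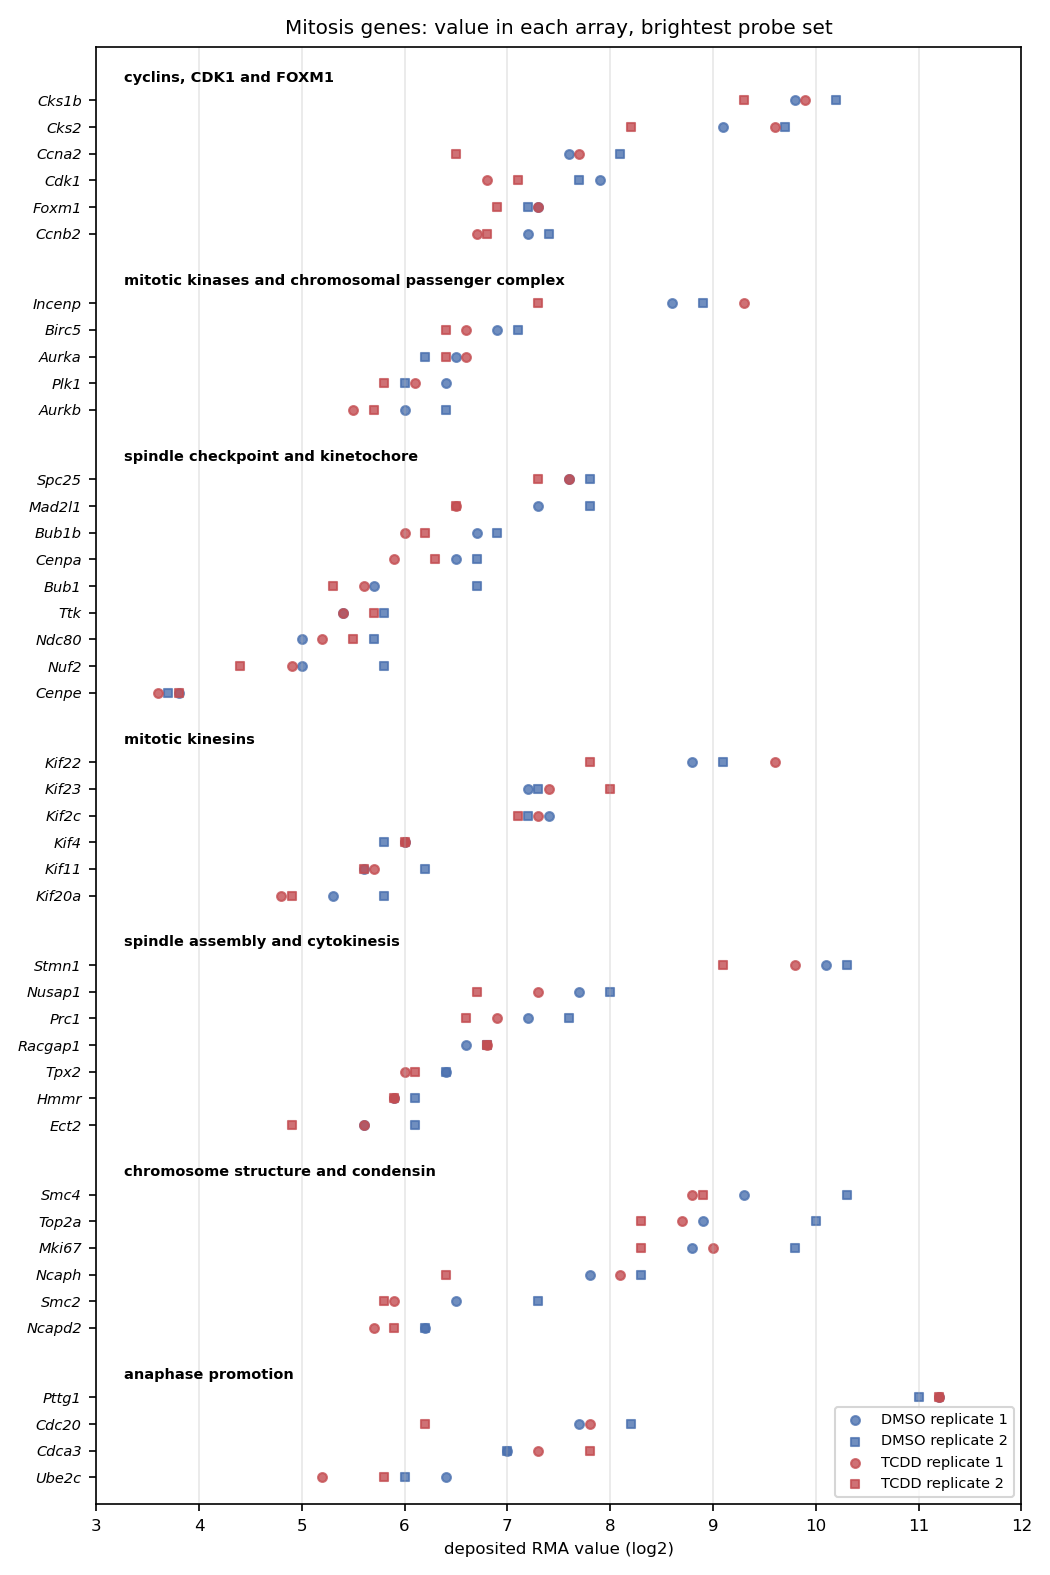
Deposited RMA value (x axis, log2) of each of the 43 mitosis genes (y axis) in each of the 4 arrays, by role and sorted by mean level. Blue marks DMSO and red TCDD, circles replicate 1 and squares replicate 2; for Cdk1, Mad2l1 and Smc2 both red points lie to the left of both blue ones, while levels run from below 4 for Cenpe to above 11 for Pttg1.

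Among the mitotic kinases and the chromosomal passenger complex, which corrects faulty attachments and drives cytokinesis, 4 of 5 measured genes were below the DMSO mean. Birc5 encodes survivin, a subunit of the passenger complex. It gave 6.9 and 7.1 in controls and 6.6 and 6.4 with TCDD, a difference of -0.50 (SE 0.131) without overlap. Aurkb, the kinase of the complex, read 6.0 and 6.4 under DMSO and 5.5 and 5.7 under TCDD, a difference of -0.60 (SE 0.192). Incenp, the scaffold of the complex, gave a value that its probe sets did not share. Its brightest probe set had values of 8.6 and 8.9 in the DMSO arrays, against 9.3 and 7.3 after TCDD, with the TCDD arrays on either side of DMSO, while the next one gave 7.0 and 7.1 in controls and 6.3 and 6.6 with TCDD. A further one gave 5.9 and 5.6 in controls and 6.1 and 5.9 with TCDD, a difference of 0.25 with overlap. Plk1, a kinase of spindle formation and mitotic exit, read 6.4 and 6.0 under DMSO and 6.1 and 5.8 under TCDD, a difference of -0.25 with overlap. Aurka, the centrosomal kinase, differed by 0.15, again with overlap.

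The spindle checkpoint and kinetochore genes, the largest group, had 5 of 9 lower without overlap, 55.6% against 19.4% of all genes. Their median difference was -0.50. Mad2l1 encodes the checkpoint protein MAD2, which binds and holds back CDC20. It lay at 7.3 and 7.8 in DMSO and at 6.5 in both TCDD arrays, 2.07-fold lower (difference -1.05, SE 0.212). Bub1b, which encodes the checkpoint protein BUBR1, had values of 6.7 and 6.9 in the DMSO arrays, against 6.0 and 6.2 after TCDD, a difference of -0.70 (SE 0.131). Both TCDD arrays lay below both DMSO arrays by more than the arrays of a group differed from each other. Bub1, a checkpoint kinase, gave 5.7 and 6.7 in controls and 5.6 and 5.3 with TCDD. The groups did not overlap, but DMSO replicate 1 was within 0.1 of TCDD replicate 1, and the SE of 0.429 was large against the difference of -0.75.

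Cenpa, the histone variant that marks the centromere, differed by -0.50 (SE 0.192) without overlap. Nuf2 and Spc25 encode subunits of the NDC80 complex, which couples kinetochores to microtubules. Nuf2 was dim and read 5.0 and 5.8 under DMSO and 4.9 and 4.4 under TCDD, a difference of -0.75. Spc25 had values of 7.6 and 7.8 in the DMSO arrays, against 7.6 and 7.3 after TCDD, a difference of -0.25 with overlap. Ndc80 itself differed by 0.00, Ttk, a kinase that starts the checkpoint, by -0.05, and the kinetochore motor gene Cenpe by -0.05. The Cenpe, Ndc80 and Nuf2 probe sets, with that of Kif20a, were the 4 of the list below 5.525, the 40th percentile of all probe sets.

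The kinesins, motors that move along microtubules, had 4 of 6 genes below the DMSO mean and a median of -0.18. Without overlap 1 was lower and 1 higher, 16.7% each, near the 19.4% and 20.0% of all genes. Kif20a, a motor of the central spindle, gave 5.3 and 5.8 in controls and 4.8 and 4.9 with TCDD, a difference of -0.70 (SE 0.216). Kif23, which forms the centralspindlin complex of cytokinesis, stood higher and read 7.2 and 7.3 under DMSO and 7.4 and 8.0 under TCDD, but its 2 other probe sets, both dim, differed by 0.00. Kif22, a motor that pushes chromosome arms, had values of 8.8 and 9.1 in the DMSO arrays, against 9.6 and 7.8 after TCDD. Its TCDD arrays lay on either side of DMSO. Kif11, the motor that separates the spindle poles, gave 5.6 and 6.2 in controls and 5.7 and 5.6 with TCDD, a difference of -0.25, and Kif2c and Kif4 differed by -0.10 and 0.10.

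Of the 7 genes of spindle assembly and cytokinesis 4 were lower without overlap (57.1% against 19.4% of all genes), with a median of -0.60. Nusap1, a microtubule-bundling protein of the spindle, read 7.7 and 8.0 under DMSO and 7.3 and 6.7 under TCDD, a difference of -0.85 (SE 0.28). Its second probe set, a dim one, went the other way without overlap, at 4.9 and 5.1 for DMSO and 5.3 and 5.4 for TCDD, a difference of 0.35. Stmn1, which encodes the microtubule destabilizer stathmin and is abundant in dividing cells, had values of 10.1 and 10.3 in the DMSO arrays, against 9.8 and 9.1 after TCDD, a difference of -0.75 (SE 0.302). In the brightest probe sets of both genes the lower value was that of TCDD replicate 2. Prc1, which cross-links microtubules of the midzone, gave 7.2 and 7.6 in controls and 6.9 and 6.6 with TCDD, and its 2 probe sets differed by -0.65 and -0.60. Tpx2, an activator of Aurora A at the spindle, was at 6.4 in both DMSO arrays and at 6.0 and 6.1 in TCDD, a small difference of -0.35 (SE 0.0744). Ect2, the exchange factor that starts furrow ingression, read 5.6 and 6.1 under DMSO and 5.6 and 4.9 under TCDD, a difference of -0.60 with overlap. Racgap1 and Hmmr differed by 0.10 and -0.10.

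The genes of chromosome structure showed the largest differences by group, with 6 of 6 below the DMSO mean and a median of -0.88. Without overlap 4 were lower, 66.7% against 19.4% of all genes. Smc2 and Smc4 encode the core ATPases of condensin, the complex that compacts mitotic chromosomes. Smc2 had values of 6.5 and 7.3 in the DMSO arrays, against 5.9 and 5.8 after TCDD, 2.07-fold lower (difference -1.05, SE 0.333). Smc4 gave 9.3 and 10.3 in controls and 8.8 and 8.9 with TCDD, a difference of -0.95 (SE 0.413). Top2a, the topoisomerase that untangles sister DNA, read 8.9 and 10.0 under DMSO and 8.7 and 8.3 under TCDD, also -0.95 (SE 0.48). In Smc4 and Top2a DMSO replicate 2 stood at least 1.0 above DMSO replicate 1, which lay closer to the TCDD arrays than to its own replicate. Mki67, the proliferation marker that coats mitotic chromosomes, had the same spread, at 8.8 and 9.8 under DMSO and 9.0 and 8.3 under TCDD, and its groups overlapped (difference -0.65, SE 0.50). The median difference between the DMSO arrays in this group was 0.90, as large as the difference between the treatments. Ncapd2, a condensin subunit, was at 6.2 in both DMSO arrays and at 5.7 and 5.9 with TCDD, a difference of -0.40 (SE 0.102). Ncaph, a further condensin subunit, had values of 7.8 and 8.3 in the DMSO arrays, against 8.1 and 6.4 after TCDD.

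The last group acts at anaphase, and its 4 genes did not share a direction: 2 were below the DMSO mean and 2 above, with a median of -0.30. Without overlap 1 was lower and 1 higher, 25% each, near the 19.4% and 20.0% of all genes. Cdc20, the activator of the anaphase promoting complex, gave 7.7 and 8.2 in controls and 7.8 and 6.2 with TCDD on its brightest probe set, a difference of -0.95 (SE 0.684) with overlap. Its next probe set read 7.4 and 7.3 under DMSO and 6.6 and 6.9 under TCDD, without overlap. Ube2c, the ubiquitin-conjugating enzyme of the complex, had values of 6.4 and 6.0 in the DMSO arrays, against 5.2 and 5.8 after TCDD, a difference of -0.70 (SE 0.30). Pttg1 encodes securin, the inhibitor of separase. It was the brightest gene of the list, and its brightest probe set stayed flat, at 11.2 and 11 in DMSO and 11.2 in both TCDD arrays. The next brightest was lower without overlap, with 7.5 in both controls against 7.3 and 7.1 after TCDD, a difference of -0.30. A further one differed by 0.35 with overlap. Cdca3, which promotes the breakdown of the mitotic inhibitor WEE1, stood higher, at 7.0 in both DMSO arrays and 7.3 and 7.8 in TCDD, while its second probe set differed by -0.20 and a further, dim one by 0.55.

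Probe sets of 1 gene gave a second reading of the same RNA, not a replicate. Of 24 genes with several probe sets, 20 were lower on the brightest; the next brightest was also lower in 13 of these, at 0 in 2 and higher in 5. The clearest disagreement was in Top2a, whose dimmer probe set lay at 5.3 in both DMSO arrays and at 5.9 and 6.2 with TCDD, a difference of 0.75 (SE 0.137). Over all 81 probe sets of the 43 genes 33 were lower without overlap and 6 higher, 40.7% and 7.41% against 18.4% and 19.0% of all 22626 probe sets. When each gene was represented by the median of its probe sets, 25 genes were lower without overlap against 19.6% of all genes, and the median difference was -0.40.

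For 6 genes the brightest probe set had a name ending in _x_at, which Affymetrix gives to probe sets with probes that also match other sequences. In 4 of them, Incenp, Kif22, Ncaph and Cdc20, TCDD replicate 2 lay 1.6 to 2.0 below TCDD replicate 1. The other probe sets of these 4 genes showed no such gap. Ncaph, for example, gave 5.8 and 6.1 in controls and 5.5 and 5.3 with TCDD on its other probe set. With the _x_at probe sets left out, a choice made after the values were seen, 22 of the 43 genes were lower without overlap against 20.3% of all genes, and the median stayed at -0.50. Cdc20, Incenp, Ncaph and Cdca3 then counted as lower without overlap, and Aurkb no longer did. Kif22 moved the other way and counted as higher without overlap, on a dim probe set with a difference of 0.35. The number of genes higher without overlap thus stayed at 2, or 4.65% against 19.9% of all genes.

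**Figure D4:**
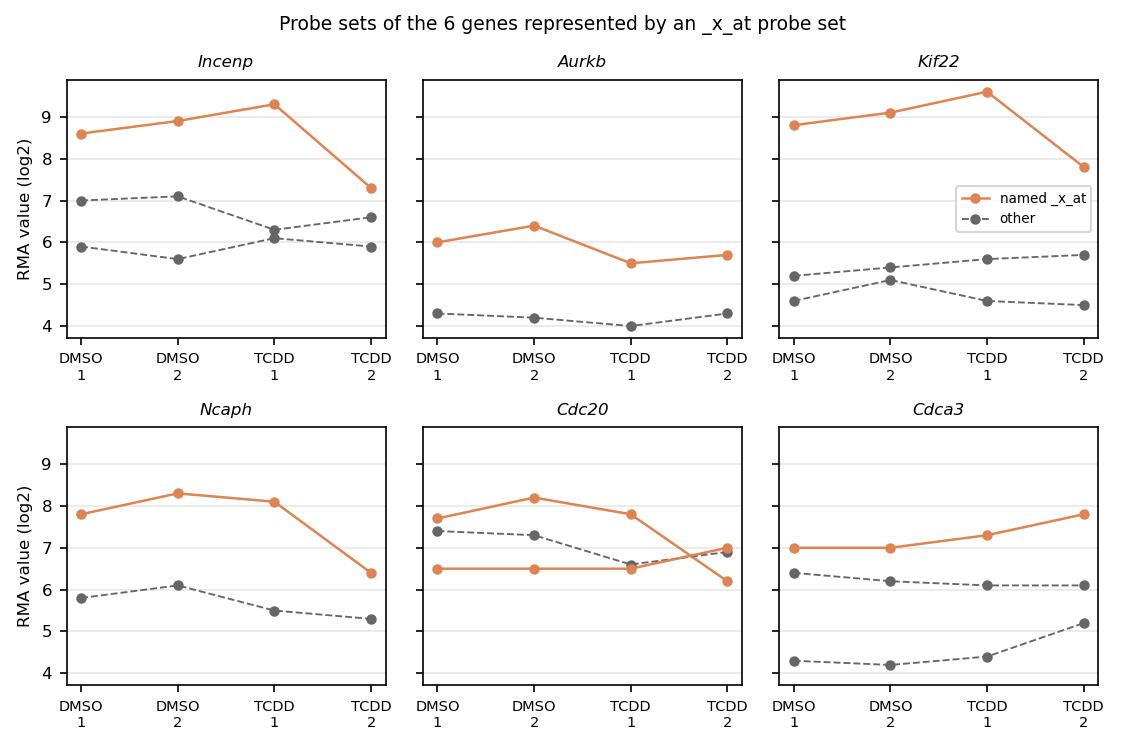
RMA value (y axis, log2) in the 4 arrays (x axis) for every probe set of the 6 genes whose brightest probe set is named _x_at; orange solid lines are _x_at probe sets and grey dashed lines the others. In Incenp, Kif22, Ncaph and Cdc20 the brightest orange line drops by 1.6 to 2.0 from TCDD replicate 1 to TCDD replicate 2, and no grey line does.

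Other genes of the cell cycle were read from lists written for this comparison. Of 45 further mitosis genes measured 18 were lower without overlap and 3 were higher, with a median of -0.25. Cep55, needed for the final cut between daughter cells, was at 6.1 and 6.8 in DMSO and at 5.2 in both TCDD arrays (difference -1.25, SE 0.291). Zwint, a kinetochore gene, differed by -1.10 and Shcbp1 by -0.95. DNA replication and S phase genes were lower without overlap in 17 of 36, or 47.2%, with 1 higher and a median of -0.40. Mcm6, a subunit of the replicative helicase, read 8.5 and 9.2 under DMSO and 7.2 and 7.9 under TCDD (difference -1.30, SE 0.407), the clamp gene Pcna differed by -1.05 and the polymerase gene Pola1 by -1.0. The share among all genes was 19.4%.

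Regulators of the cycle were mixed, and their counts without overlap stand against 19.4% lower and 20.0% higher over all genes. Among G1 cyclins and kinases 3 of 9 were lower without overlap (33.3%) and 0 higher. Ccnd1, the cyclin D1 gene, was at 10.0 in both DMSO arrays and at 8.7 and 8.8 in TCDD, 2.38-fold lower (difference -1.25, SE 0.0744; limma adjusted p = 0.349). Ccne2 and Cdk2 differed by -0.85 and -0.60. Genes that restrain the cycle did not lie higher: of 15 CDK inhibitors and antiproliferative genes 6 were lower without overlap and 0 higher, with Gadd45g at -1.60, Btg1 at -0.85 and Ccng2 at -0.80. Among the CDK inhibitor genes themselves only Cdkn2c, at -0.55, was lower without overlap. Cdkn1a, Cdkn1b and Cdkn1c differed by -0.05, Cdkn2a and Cdkn2b by 0.05 and Cdkn2d by -0.40, all with overlap. Of 15 regulators of the DREAM, E2F and MYB families 2 were lower and 2 higher, 13.3% each and below the shares of all genes; Rbl1, which encodes the pocket protein p107, differed by -1.25. The 7 cohesin genes had a median of 0.80 between the DMSO arrays and of -0.45 between the treatments, with 2 lower and 0 higher without overlap and Rad21 at -1.0. Subunits of the anaphase promoting complex had a median of -0.05, with 3 of 12 lower (25%, near the share of all genes) and 1 higher. None of these genes passed the limma test.

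**Figure D5:**
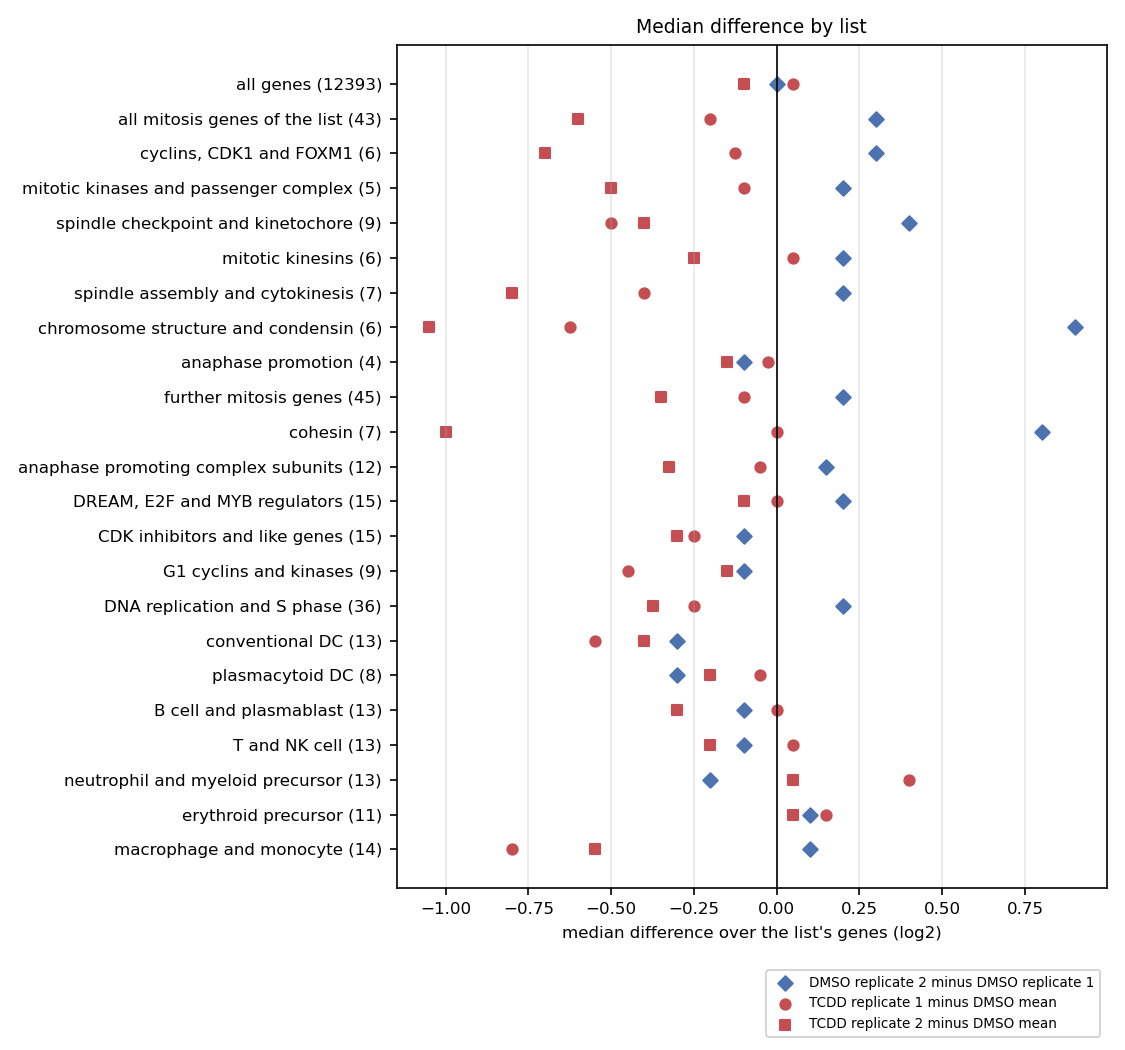
Median log2 difference over the genes of each list (x axis) for DMSO replicate 2 minus DMSO replicate 1 (blue diamonds) and for TCDD replicate 1 (red circles) and TCDD replicate 2 (red squares) minus the DMSO mean; the number of genes measured is in brackets (y axis). Over all mitosis genes of the list the medians are 0.30, -0.20 and -0.60, and over all genes they are 0.00, 0.05 and -0.10.

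Markers of several cell types differed between the arrays, and their part in the differences of the mitosis genes was not tested. Counts of markers without overlap stand against 19.4% lower and 20.0% higher over all genes. Of 13 measured DC markers 12 lay above the 40th percentile; the integrin gene Itgax had values of 9.6 and 10.1 in the DMSO arrays, against 9.1 and 9.4 after TCDD. The mean level of these markers was 8.41 and 8.32 under DMSO and 7.83 and 8.07 under TCDD, and 6 of 13 were lower without overlap. Plasmacytoid DC markers had a median difference of -0.15, with 1 of 8 lower and 1 higher, 12.5% each and below those shares. Macrophage and monocyte markers, 5 of 14 lower and 0 higher, had a mean of 8.65 and 8.61 in DMSO and 8.09 and 8.11 in TCDD. Neutrophil and myeloid precursor markers stood apart in TCDD replicate 1, at a mean of 7.20, while the other TCDD array had 6.17 and the DMSO arrays 6.32 and 6.05; 1 of 13 was lower and 4 were higher. The neutrophil gene S100a8 read 10.3 in TCDD replicate 1 and 5.6 to 6.4 elsewhere, while Camp, of the same list, was high in both TCDD arrays, at 6.9 and 6.5 against 5.6 and 5.1 for DMSO. B cell and plasmablast markers, 5 of 13 lower and 2 higher, gave 6.78 and 6.64 in controls and 6.69 and 6.30 with TCDD. T and NK cell markers, 0 of 13 lower and 1 higher, were at 5.85 and 5.65 against 5.88 and 5.61. Erythroid precursor markers, of cells that also divide in the mouse spleen, had a mean of 5.85 and 5.97 in DMSO and 6.01 and 6.09 in TCDD, with 0 of 11 lower and 3 higher without overlap. TCDD replicate 1 also differed in its control probe sets, where Gapdh read 3.6 higher at its 3′ end than in its middle, against 1.5 to 2.1 in the other 3 arrays, and beta-actin 4.0 higher against 1.9 to 2.1.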

How the data were processed

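Per the submitters' processing notes the authors computed RMA values; the deposited table holds them on the log2 scale for 22690 probe sets, rounded to steps of 0.1. RMA software and settings were not given in the sources used here. Tests exclude 64 control probe sets. Of the other 22626, 20380 have 1 gene symbol in the platform annotation, 691 several and 1555 none. TCDD was compared with DMSO over all probe sets with limma 3.58.1 in R 4.3.3 (lmFit, eBayes, two-sided, Benjamini-Hochberg). The standard error (SE) is the moderated one. Arrays give no counts, so their number limits the precision. The fit was tested on simulated data.

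The genes, lists and tests were chosen with earlier results of these data known; the list's counts and medians are therefore descriptions, set beside all genes. In each role group the 2 brightest genes and the 2 of the rest with the largest difference are given array by array, and others as needed; from every other list up to 3 genes of largest difference. Genes were named array by array outside that rule after their values were seen. Replicate numbers were not taken as pairs, since the labels tie them to no shared source; across probe sets, the difference between the replicates had a correlation of -0.189 between DMSO and TCDD. Alternatives were other scalings, filters, probe set choices, priors, the replicate block and each array left out.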

Additional observations from a re-analysis of the deposited data

How the results depend on the processing

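Limma called 0 probe sets under all 14 alternatives, the replicate block among them. Counts of mitosis genes lower without overlap stayed within 1.5 times the 19 reported under 12 of 14 alternatives (17 to 25). The replicate blocks and the other prior do not enter this count and left it at 19 by construction, so they do not test it. With 1 array left out they ranged from 20 to 32; a lone array meets the criterion more easily. The median difference was below 0 under all 13 alternatives run for it, at -0.40 after quantile normalization and -0.55 after median centring, and from -0.60 to -0.20 with 1 array left out. The replicate block and the other prior could not change this median. The 8 genes at an unadjusted p under 0.05 became 13 (12 of them lower) when a gene was the median of its probe sets, 6 with the replicate block (14.0% against 10.0% of all genes, both directions counted) and 4 to 7 with 1 array left out. That was 14.0% against 25.7% of all genes without TCDD replicate 1 and 9.30% against 21.1% without TCDD replicate 2, both below the share of all genes, and 11.6% against 7.29% and 16.3% against 9.19% without DMSO replicates 2 and 1. The 2 genes lower by 2-fold became 1 under quantile normalization, 2.33% against 0.896% of all genes. They were 4 under median centring (9.30% against 2.89%) and 1 under cyclic loess (2.33% against 1.03%). With 1 array left out they ranged from 0, without DMSO replicate 2, to 13, without TCDD replicate 1. Without TCDD replicate 1 the share over all genes rose from 2.42% to 4.20%. A lone array is assumed to vary like those of the other group. The crossed replicate block, added after the data were seen, called 0 probe sets and held 9 mitosis genes at an unadjusted p under 0.05. Signals below 5.525 limit what can be seen of Cenpe, Ndc80, Nuf2 and Kif20a.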

Other observations

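A gap between the TCDD arrays in _x_at probe sets was also seen outside the mitosis genes. Among the 1064 such probe sets at or above the 40th percentile, TCDD replicate 2 lay below TCDD replicate 1 by 1 or more on the log2 scale in 257, or 24.2%. The same held for 4.27% of the 9057 probe sets of the plain _at class, 8.95% of the _a_at class and 14.0% of the _s_at class. The median of TCDD replicate 2 minus TCDD replicate 1 was -0.40 in the _x_at class and -0.10 in the _at class. The 6 mitosis genes represented by an _x_at probe set had a median of -1.65, with 4 of them lower by 1 or more. These 6 were picked as the brightest of their genes, so their median and that of the class rest on unlike choices. The other _x_at probe sets of mitosis genes differed by 0.5 for Cdc20, 0.2 for Hmmr, -0.2 for Foxm1 and -0.9 for Kif2c, a dim one. DMSO replicate 2 minus DMSO replicate 1 had a median of 0.00 in all 4 classes. The cause was not tested.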
